A study of Mus musculus with 48 samples.

Results

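Resident Kupffer cells, lipid-associated macrophages and recruited monocyte-derived cells of the liver were followed through 10 marker genes: Cd68, Clec4f, Marco, Cd5l, Vsig4, Timd4, Trem2, Gpnmb, Ccr2 and Itgax. They were chosen by gene name, as all non-control probes that the arrays annotate to one of these symbols, which gave 14 of 56605 probes and 10 of 37074 genes. All 10 genes, through 12 of the 14 probes, were among the 20486 genes and 30793 probes kept for testing because at least 5 of 6 arrays of some group were well above background. The 2 probes left out both belong to Itgax and were well above background on 1 and 0 of 48 arrays. The livers came from 48 male mice, 6 in each of 8 groups, and each liver was hybridised to 1 one-colour Agilent mouse array. The p110α hep-/- mice carried floxed alleles of Pik3ca, which encodes the p110α catalytic subunit of PI3K, together with an albumin-driven Cre that acts in hepatocytes. The p110α hep+/+ controls were littermates with the same floxed alleles and no Cre, so macrophages of both genotypes were not targeted. From 12 weeks of age the mice were given either the control diet D12450J (CTRL) or the high-fat diet D12492 (HFD, 60% of calories from fat) for 12 weeks. All were killed at ZT16, either fed ad libitum or after 24 h without food. RNA was from whole liver, so fewer cells of a type and less RNA per cell cannot be told apart in any result given here.

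Kupffer cells are the macrophages that line the liver sinusoids, where they take up particles, dying cells and modified lipoproteins through scavenger, complement and phosphatidylserine receptors. Under lipid load or injury, blood monocytes enter the liver through the chemokine receptor Ccr2, and some of them become lipid-associated macrophages, which express Trem2, Gpnmb and genes of lysosomes and lipid handling. Itgax, the integrin CD11c, is found on dendritic cells and on such recruited macrophages, while Cd68 is a lysosomal glycoprotein of macrophages at large.

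Across the 48 arrays, 52.3% to 59.3% of spots were well above background, arrays correlated with each other at r between 0.9729 and 0.9974, and weights that limma estimates for array quality ran from 0.35 to 1.72. The hepatocyte markers, 10 of 10 measured, had mean log2 signals between 16.88 and 17.39 on all arrays, and the 5 Kupffer cell markers Clec4f, Marco, Cd5l, Vsig4 and Timd4 were well above background on all 48. The hepatocyte means were higher in p110α hep-/- livers without overlap in fed mice. They were 17.18 to 17.30 against 16.98 to 17.12 on CTRL and 17.16 to 17.38 against 16.88 to 17.07 on HFD. In fasted mice the genotypes overlapped. The 1 kept Pik3ca probe that was examined (chr3:32364747-32364806 of mm9) was higher in p110α hep-/- livers by limma in fed CTRL (0.39, adjusted p = 4.19e-04), fed HFD (0.58, adjusted p = 2.99e-07) and fasted HFD mice (0.25, adjusted p = 0.0172), and differed by 0.08 (adjusted p = 0.531) in fasted CTRL mice. Whether this probe lies in the deleted part of the gene was not determined, and the deletion was therefore not checked on these arrays.

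The stretches just before the start sites of 5 of the markers are shown because they belong to genes with different calls: Trem2, Gpnmb and Itgax were called with diet and genotype, Cd68 in fewer comparisons, and Vsig4 between genotypes in fasted mice only, on HFD in the direction opposite to the other 4. The sequences are RefSeq promoters of GRCm38.p6, 5′ to 3′ on the strand of the gene: Trem2 chr17:48346151-48346400 (plus), Gpnmb chr6:49036268-49036517 (plus), Itgax chr7:128129300-128129525 (plus, shorter because the annotated gene begins there), Cd68 chr11:69666171-69666420 (minus) and Vsig4 chrX:96293439-96293688 (minus). Capitals mark TGAGTCA, the AP-1 site, and GAGGAA, the core of a PU box, searched on both strands, so that TTCCTC is the same box on the other strand.
Trem2: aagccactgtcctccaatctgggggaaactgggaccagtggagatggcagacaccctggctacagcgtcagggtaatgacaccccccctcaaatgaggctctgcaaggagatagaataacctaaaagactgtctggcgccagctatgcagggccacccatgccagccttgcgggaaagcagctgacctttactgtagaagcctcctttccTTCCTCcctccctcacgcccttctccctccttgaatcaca
Gpnmb: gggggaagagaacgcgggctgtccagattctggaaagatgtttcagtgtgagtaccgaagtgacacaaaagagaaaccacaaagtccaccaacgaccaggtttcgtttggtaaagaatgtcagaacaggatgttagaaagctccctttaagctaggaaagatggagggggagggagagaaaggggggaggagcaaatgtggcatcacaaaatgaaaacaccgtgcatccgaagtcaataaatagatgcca
Itgax: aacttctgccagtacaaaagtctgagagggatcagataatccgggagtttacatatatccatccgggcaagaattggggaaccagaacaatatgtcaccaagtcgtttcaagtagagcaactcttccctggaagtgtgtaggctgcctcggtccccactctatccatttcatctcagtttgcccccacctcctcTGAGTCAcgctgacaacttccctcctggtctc
Cd68: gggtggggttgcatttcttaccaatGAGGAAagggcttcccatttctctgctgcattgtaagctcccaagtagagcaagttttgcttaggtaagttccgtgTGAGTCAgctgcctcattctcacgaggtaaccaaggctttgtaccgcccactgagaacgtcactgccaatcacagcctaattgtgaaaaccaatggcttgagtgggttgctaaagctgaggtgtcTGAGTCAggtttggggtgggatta
Vsig4: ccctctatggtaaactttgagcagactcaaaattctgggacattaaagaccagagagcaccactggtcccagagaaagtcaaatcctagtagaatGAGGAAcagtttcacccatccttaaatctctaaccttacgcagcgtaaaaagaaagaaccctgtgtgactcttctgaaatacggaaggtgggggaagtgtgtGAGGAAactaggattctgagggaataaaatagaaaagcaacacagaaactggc
Within 250 bases before the start, TGAGTCA occurred in 2 of the 10 markers, Cd68 (24 and 149 bases before the start) and Itgax (56 bases before the start site of the promoter table, which is 32 before the end of the printed stretch because that stretch stops 24 bases short of the site), and in 4.46% of 32851 mouse promoters. The box GAGGAA occurred in 5 of 10 (Cd5l, Cd68, Marco, Trem2 and Vsig4) and in 23.3% of promoters. The E-box CACGTG occurred in 0 of 10 and in 6.02% of promoters. These are matches of letters and say nothing of which factors bind there.

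The first comparison asked how HFD changed the markers in livers with intact p110α. In fed p110α hep+/+ mice, Trem2, Gpnmb, Ccr2 and Itgax were all higher on HFD than on CTRL. That is 4 of 10 markers called at a limma adjusted p of at most 0.05, where 24.1% of the 20486 genes were called in either direction and 12.4% were called higher. In fasted p110α hep+/+ mice the same 4 and Cd68 were higher, which is 5 of 10 where 15.9% of all genes were called and 8.96% were called higher. Gpnmb was kept for testing only through the 2 p110α hep+/+ HFD groups, where it was high, so its calls against those groups are not independent of the filter. The other 9 markers were well above background on at least 5 of 6 arrays of every group, and among them 3 were called in fed and 4 in fasted mice. The median difference over the 10 markers was 0.19 in fed and 0.59 in fasted mice on the log2 scale, beside medians of -0.01 and -0.02 over all genes.

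Trem2, a lipid-sensing receptor that signals through the adaptor Tyrobp, had normalized log2 signals of 6.72 to 8.80 (median 8.40) in fed p110α hep+/+ mice on CTRL and 8.27 to 10.10 (median 9.17) on HFD. Fasted mice of this genotype had 8.09 to 8.51 (median 8.27) on CTRL and 8.03 to 9.94 (median 9.43) on HFD. The groups overlapped in both states, and in fasted mice a single HFD liver, that of replicate 5 at 8.03, lay below all CTRL livers. The HFD difference was 0.93 ± 0.27 (limma log2 difference ± SE, n = 6 per group here and below, adjusted p = 0.00995) in fed mice and 1.06 ± 0.27 (adjusted p = 0.00604) in fasted mice.

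Gpnmb, a transmembrane glycoprotein of lysosome-rich macrophages, ran from 5.22 to 6.51 (median 5.73) on CTRL and from 5.67 to 6.98 (median 6.65) on HFD in fed p110α hep+/+ mice. In fasted mice it ran from 5.02 to 6.08 (median 5.43) on CTRL and from 6.13 to 7.43 (median 6.64) on HFD, without overlap. Its probe was dim: 3 of 6 fed and 2 of 6 fasted CTRL arrays were well above background, against 6 of 6 in both HFD groups. The difference was 0.77 ± 0.19 (adjusted p = 0.00202) in fed mice and 1.32 ± 0.19 (adjusted p = 3.66e-06) in fasted mice. With background-subtracted signals scaled to the 75th percentile they were 1.64 and 3.02 and still called. Other processing settings brought them down to 0.52 fed and 0.93 fasted.

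Ccr2, the receptor that monocytes use to follow Ccl2, lay between 5.96 and 6.70 (median 6.20) on CTRL and between 6.15 and 7.10 (median 6.60) on HFD in fed p110α hep+/+ mice. After fasting the ranges were 5.71 to 6.36 (median 5.98) and 6.58 to 6.95 (median 6.80), and every HFD liver was above every CTRL liver. The difference was 0.36 ± 0.11 (adjusted p = 0.011) fed and 0.76 ± 0.11 (adjusted p = 3.42e-06) fasted, or 0.58 and 1.19 with the background-subtracted signals, still called. Other processing settings brought it down to 0.27 fed and 0.55 fasted. The fed call was lost without replicate 3 or without replicate 6 of the fed CTRL group, at 0.30 and adjusted p up to 0.0525.

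Itgax went from a range of 6.52 to 7.71 (median 7.19) on CTRL to 7.02 to 8.76 (median 7.87) on HFD in fed p110α hep+/+ mice. In fasted mice it went from 6.45 to 7.31 (median 6.79) to 7.73 to 8.38 (median 7.97). The fasted groups did not overlap and the fed groups did. The difference was 0.73 ± 0.20 (adjusted p = 0.0072) fed and 1.13 ± 0.20 (adjusted p = 1.54e-04) fasted.

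Cd68 showed the smallest of these shifts. Its brightest probe ran from 10.55 to 11.08 (median 10.66) on CTRL and from 10.50 to 11.11 (median 10.90) on HFD in fed p110α hep+/+ mice, a difference of 0.21 ± 0.10 (adjusted p = 0.148) that was not called. In fasted mice it ran from 10.12 to 10.64 (median 10.54) and from 10.74 to 11.46 (median 10.91), without overlap, a difference of 0.49 ± 0.11 (adjusted p = 0.00119). A second Cd68 probe gave 0.43 (adjusted p = 0.00744) in the fasted mice and the third, the dimmest, gave 0.24 (adjusted p = 0.0884). In the fasted comparison, 4 of the 10 markers, Cd68, Gpnmb, Ccr2 and Itgax, were higher on HFD without overlap of the groups, beside 3.57% of all genes (3 of 9 without Gpnmb), and in the fed comparison 0 of 10 were, beside 5.52%.

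**Figure D1:**
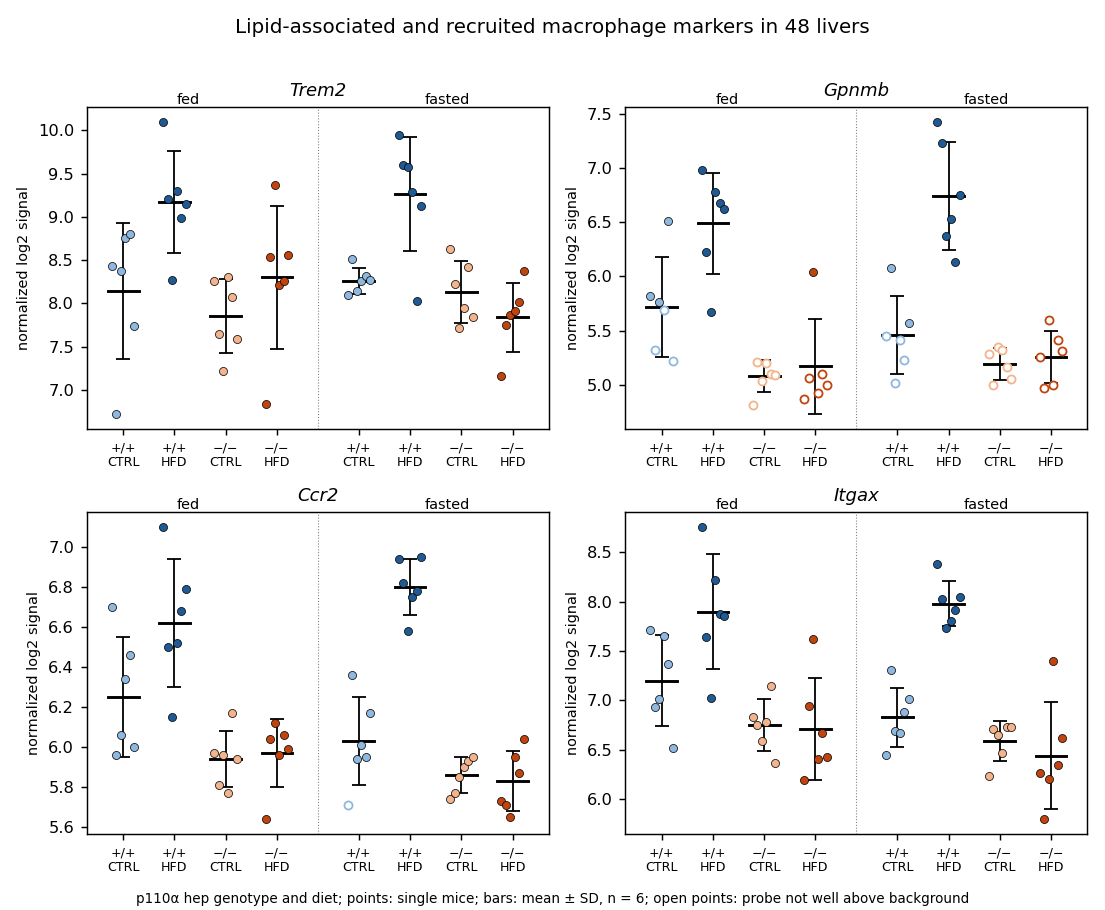
Normalized log2 signal (vertical axis) of Trem2, Gpnmb, Ccr2 and Itgax on each of the 48 arrays (points) by genotype, diet and state, with mean ± SD of 6 arrays per group, open points being not well above background. In fasted p110α hep+/+ mice the HFD arrays of Gpnmb (6.13 to 7.43) lie above all CTRL arrays (5.02 to 6.08), and all fasted p110α hep-/- arrays lie between 4.97 and 5.60.

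In p110α hep-/- livers none of the 10 markers was called between HFD and CTRL by limma, in fed mice (12.2% of all genes called) or in fasted mice (10.8%), and 0 of 10 reached an unadjusted p under 0.05 in either state. Trem2 differed by 0.43 (95% confidence interval -0.17 to 1.03) in fed and by -0.29 (-0.88 to 0.30) in fasted mice. Ccr2 differed by 0.02 (-0.22 to 0.26) and -0.03 (-0.26 to 0.20), and Itgax by -0.09 (-0.54 to 0.36) and -0.14 (-0.59 to 0.30). Gpnmb was well above background on 0 of 6 arrays of either CTRL group and on 1 of 6 fed and 0 of 6 fasted HFD arrays, so it has no fold between diets in this genotype.

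Whether the diet response differed between genotypes was tested directly as the difference between both diet effects. In fasted mice it was called for 5 of 10 markers, all lower in p110α hep-/- livers, where 4.96% of all genes were called and 2.88% were called lower. The difference of differences was -0.59 ± 0.16 for Cd68 (adjusted p = 0.0206), -1.35 ± 0.40 for Trem2 (0.0405), -0.79 ± 0.16 for Ccr2 (0.00259) and -1.27 ± 0.30 for Itgax (0.0101). For Gpnmb the fit gave -1.30 (adjusted p = 0.00406), but both fasted p110α hep-/- groups were not well above background on any array, so this value has no measured size and 4 of the 5 calls rest on levels measured in both genotypes. In fed mice limma called 0 of 10 (2.83% of all genes), with 3 markers at an unadjusted p under 0.05: Gpnmb at -0.76, Ccr2 at -0.34 and Itgax at -0.82 (adjusted p = 0.122, 0.245 and 0.131). The fasted value of Trem2 passed by a small margin and lost its call when any 1 of 15 arrays was left out, at differences within -1.54 to -1.22 and adjusted p up to 0.0742. Those 15 were replicates 1, 3, 4, 5 and 6 of the fasted p110α hep+/+ CTRL group, 1, 2, 3 and 4 of its HFD group, 1, 2 and 5 of the fasted p110α hep-/- CTRL group and 1, 2 and 3 of its HFD group. Cd68 lost its call without replicate 3 of the fasted p110α hep+/+ CTRL group, at -0.50 and adjusted p = 0.0575. In the fed mice, Gpnmb was called, at -0.89 and adjusted p = 0.0446, when replicate 3 of the p110α hep+/+ HFD group was left out, again with p110α hep-/- levels that were mostly not well above background.

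**Figure D2:**
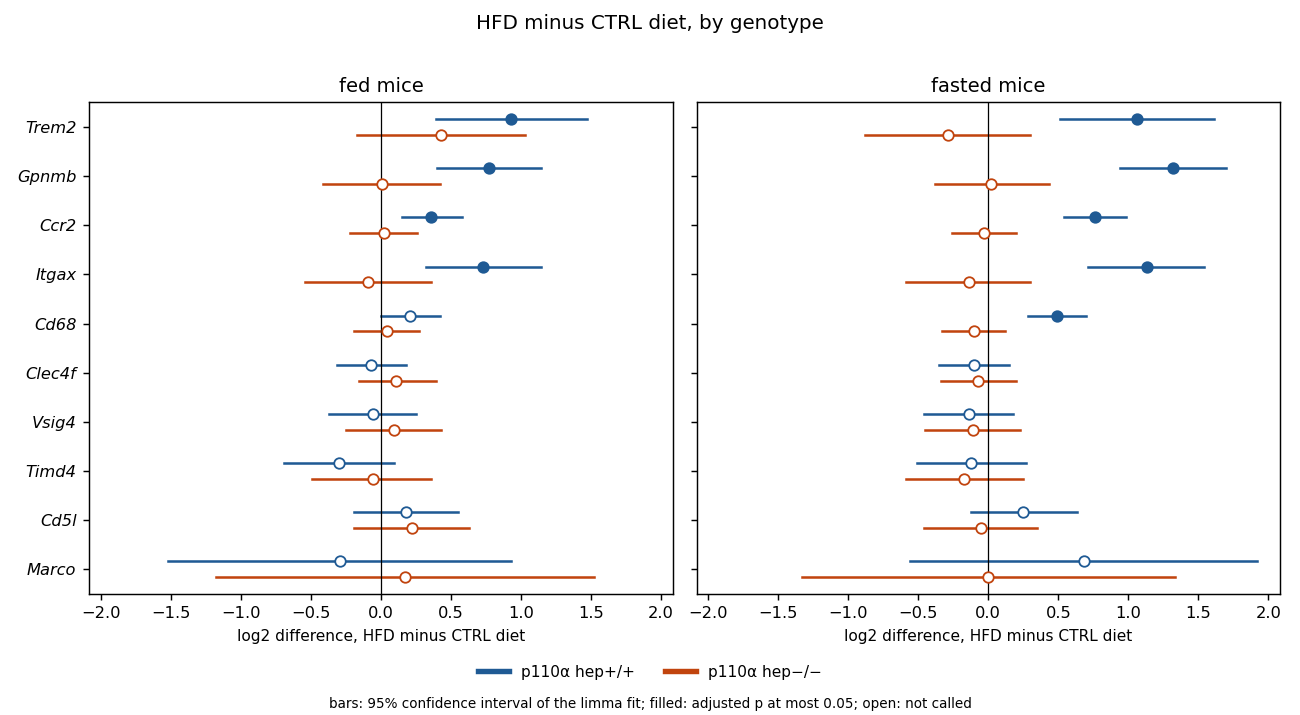
Log2 difference between HFD and CTRL (horizontal axis) of the 10 markers in fed and fasted mice of each genotype, with 95% confidence intervals from the limma fit (filled points, called; open points, not called). In fasted p110α hep+/+ mice the values for Trem2, Gpnmb, Ccr2, Itgax and Cd68 are 1.06, 1.32, 0.76, 1.13 and 0.49, and the 10 intervals of the other genotype contain 0.

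The genotypes were then compared on the same diet and in the same state. These comparisons share the p110α hep+/+ HFD livers with the diet comparisons above, so both sets of values are not independent of each other. On HFD, fed p110α hep-/- livers had lower Trem2, Gpnmb, Ccr2 and Itgax, 4 of 10 markers, where 32.9% of all genes were called and 16.3% were called lower. Fasted p110α hep-/- livers on HFD had these 4 and Cd68 lower and Vsig4 higher, 6 of 10 in all, where 36.8% of genes were called, 17.7% lower and 19.1% higher. Without Gpnmb these counts are 3 and 5 of 9.

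Fed p110α hep-/- mice on HFD had Trem2 signals of 6.83 to 9.37 (median 8.40), overlapping the 8.27 to 10.10 of the controls. The difference was -0.96 ± 0.28 (adjusted p = 0.008), but it was -1.76 among the 3 arrays per group of the first washing batch and 0.02 among those of the second. Without replicate 1 of the fed p110α hep-/- HFD group, which had the 6.83, it was -0.69 (adjusted p = 0.0552). In fasted mice the p110α hep-/- range was 7.16 to 8.37 (median 7.89), which met the controls only at their lowest liver of 8.03, and the difference was -1.49 ± 0.29 (adjusted p = 9.35e-05), with -1.66 and -1.17 in the washing batches.

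Gpnmb in p110α hep-/- mice on HFD ran from 4.87 to 6.04 (median 5.03) fed and from 4.97 to 5.60 (median 5.28) fasted. The fed group overlapped the controls by 1 liver, replicate 3 at 6.04, and the fasted group did not overlap them. In fed p110α hep-/- mice 1 of 6 arrays was well above background, so the fitted fed difference of -1.46 ± 0.19 (adjusted p = 1.39e-07) is set mostly against signals near background. In fasted mice no p110α hep-/- array was well above background, so the difference of -1.49 ± 0.20 (adjusted p = 1.73e-07) is given as a bound, with p110α hep+/+ livers at least 2.54-fold higher. This bound sets the mean of the brighter group against the lowest signal that counted as well above background on each array of the dimmer group. With background-subtracted signals the fitted differences were -3.45 fed and -3.51 fasted, and with the normexp background correction the fed one was -0.92, all called.

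Ccr2 ran from 5.64 to 6.12 (median 6.01) in fed and from 5.65 to 6.04 (median 5.80) in fasted p110α hep-/- mice on HFD, below every p110α hep+/+ liver of the same diet and state. The difference was -0.67 ± 0.11 (adjusted p = 1.01e-05) fed and -0.97 ± 0.12 (adjusted p = 1.38e-08) fasted, or -1.07 and -1.64 with background-subtracted signals. At the other end of the processing settings it was -0.47 fed and -0.70 fasted. Itgax ran from 6.19 to 7.62 (median 6.55) fed, overlapping the controls, and from 5.80 to 7.40 (median 6.31) fasted, below all of them. Its differences were -1.27 ± 0.21 (adjusted p = 9.15e-06) and -1.54 ± 0.22 (adjusted p = 4.96e-07).

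Cd68 did not pass the test between genotypes in fed mice on HFD (-0.09 ± 0.11, adjusted p = 0.556). In fasted mice on HFD it ran from 10.33 to 10.73 (median 10.63) in p110α hep-/- livers, just below the lowest control of 10.74, a difference of -0.35 ± 0.11 (adjusted p = 0.0148). Its second probe gave -0.36 (adjusted p = 0.0197) and the third -0.25 (adjusted p = 0.0604). On HFD, 1 of 10 markers, Ccr2, was lower in fed p110α hep-/- livers without overlap of the groups, beside 7.03% of all genes. In fasted mice it was 4 of 10, Cd68, Gpnmb, Ccr2 and Itgax, beside 7.54% (3 of 9 without Gpnmb).

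On CTRL, 2 of 10 markers were called between genotypes in fed mice, both lower in p110α hep-/- livers, where 21.5% of all genes were called and 10.6% were called lower. Gpnmb ran from 4.81 to 5.21 (median 5.10), just below the 5.22 to 6.51 of the controls, a fitted difference of -0.69 ± 0.20 (adjusted p = 0.00858). With 3 of 6 p110α hep+/+ and 0 of 6 p110α hep-/- arrays well above background, its size is not measured. Its fitted difference ran from -2.04 with background-subtracted signals to -0.43 with normexp and stayed called. It was the 1 marker of 10 that was lower without overlap, beside 3.32% of genes. Ccr2 ran from 5.77 to 6.17 (median 5.95) and overlapped the controls, at -0.32 ± 0.11 (adjusted p = 0.0353), or -0.53 with background-subtracted signals. At the other end of the processing settings it was -0.23. The Ccr2 call was lost when any 1 of 7 fed CTRL arrays was left out: replicates 2, 3, 4 and 6 of p110α hep-/- and 1, 4 and 5 of p110α hep+/+, with the difference between -0.38 and -0.23 and adjusted p up to 0.162. Itgax, at -0.46 (adjusted p = 0.126), was called when p110α hep+/+ replicate 6 was left out, at -0.61 (adjusted p = 0.0408). In fasted mice on CTRL 1 of 10 markers was called, Vsig4, where 24.8% of all genes were called and 12.5% were called higher.

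**Figure D3:**
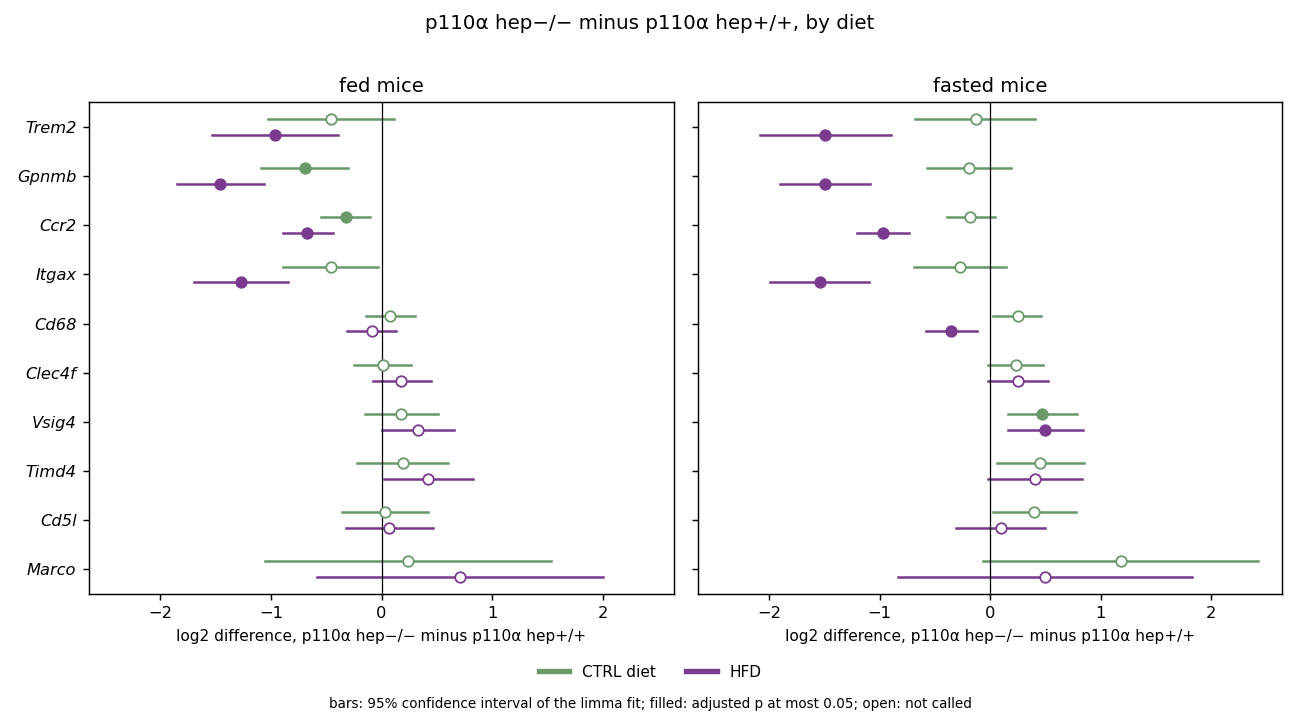
Log2 difference between p110α hep-/- and p110α hep+/+ livers (horizontal axis) of the 10 markers in each diet and state, with 95% confidence intervals from the limma fit (filled points, called; open points, not called). Trem2, Gpnmb, Ccr2 and Itgax lie to the left of 0 in all 4 comparisons, and Clec4f, Marco, Cd5l, Vsig4 and Timd4 to the right in this weighted fit, although the unweighted means of Marco, Clec4f and Cd5l in fed CTRL mice were lower in p110α hep-/- livers.

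The 5 markers of resident Kupffer cells were then examined. None of the 5 was called between diets by limma in any genotype or state, 0 of them at an unadjusted p under 0.05, and the medians of their HFD differences lay between -0.10 and 0.11. Between genotypes, the limma fit, which weights arrays by quality, put the differences of all 5 above 0, toward p110α hep-/- livers, in each of the 4 comparisons, with medians of 0.18 (fed CTRL), 0.45 (fasted CTRL), 0.33 (fed HFD) and 0.41 (fasted HFD) beside 0.01 to 0.03 over all genes. This direction held with unweighted group means in fasted CTRL and fed HFD mice (medians 0.43 and 0.43). In fed CTRL mice 2 of the 5 unweighted differences were above 0 (median -0.03), and in fasted HFD mice 4 of 5 (median 0.24), Cd5l having a mean of 13.71 in both genotypes. Only Vsig4 passed the test, in the 2 fasted comparisons. That is 1 of 5 in each, where 12.5% (CTRL) and 19.1% (HFD) of all genes were called higher. These 5 genes varied together from mouse to mouse, so their shared direction is not that of 5 separate measurements.

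Vsig4, a complement receptor that binds C3b-coated particles, was measured with a probe at chrX:93443157-93443216 of mm9 (minus strand). Clec4f, a galactose-binding lectin used to define mouse Kupffer cells, was measured with a probe at chr6:83595281-83595339 of mm9 (minus strand). Their probes are shown, 5′ to 3′, because these are the Kupffer cell markers that passed a test.
Vsig4: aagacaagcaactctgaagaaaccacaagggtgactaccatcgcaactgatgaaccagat
Clec4f: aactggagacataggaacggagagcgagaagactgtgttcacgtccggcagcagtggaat
Vsig4 in fasted mice on CTRL ran from 9.48 to 10.26 (median 9.92) in p110α hep+/+ and from 9.99 to 10.56 (median 10.28) in p110α hep-/- livers. On HFD it ran from 9.35 to 10.84 (median 9.58) and from 9.94 to 10.52 (median 10.12). The groups overlapped in both, on HFD through a single control, replicate 5 at 10.84, that was above all other fasted HFD livers. The differences were 0.47 ± 0.16 (adjusted p = 0.023) and 0.50 ± 0.17 (adjusted p = 0.0174), with 0.63 and 0.20 in the washing batches of the HFD comparison. Both calls were lost without array weights, without the filter on dim probes and when a fold over 1.5 was required.

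That liver, replicate 5 of the fasted p110α hep+/+ mice on HFD, had the highest signal of its group for all 5 Kupffer cell markers. When it was left out, Timd4, a phosphatidylserine receptor of resident macrophages, and Clec4f were called too on fasted HFD, at 0.61 (adjusted p = 0.00666) and 0.36 (adjusted p = 0.0166) in place of 0.41 (0.131) and 0.25 (0.14), and 8 of 10 markers were called. Timd4 was then also called in fasted CTRL mice (0.45, adjusted p = 0.0347) and fed HFD mice (0.42, adjusted p = 0.0486), where the differences themselves did not change. With all arrays, Timd4 in fasted HFD mice ran from 6.70 to 8.43 (median 6.92) in p110α hep+/+ and from 6.94 to 8.0 (median 7.42) in p110α hep-/- livers. The Vsig4 call in fasted HFD mice was lost without p110α hep-/- replicate 2 or p110α hep+/+ replicate 2 or 4 (adjusted p up to 0.0717). The one in fasted CTRL mice was lost without p110α hep-/- replicate 1 or 2 or p110α hep+/+ replicate 2 or 3 (adjusted p up to 0.0998), and differences stayed at 0.37 or more in both.

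Cd5l, a secreted scavenger protein also known as AIM, had group medians between 13.41 and 13.95 and overlapped between genotypes in each diet and state. Its genotype differences in the weighted fit lay between 0.03 and 0.40 and did not pass the test. Marco, a class A scavenger receptor, had the largest SD of the 10 markers in 7 of 8 groups, up to 1.80. The exception was fed p110α hep+/+ mice on HFD, with 0.37 for Marco and 0.59 for Trem2. For Marco, 6 of 48 arrays were more than 2 above the median of their group, while those medians lay between 10.31 and 11.28. Its genotype differences of 0.24, 1.18, 0.71 and 0.50 (fed CTRL, fasted CTRL, fed HFD, fasted HFD) had standard errors of 0.61 to 0.66 and did not pass the test. In fed CTRL mice the sign turned without array weights, with unweighted means of 10.96 in p110α hep-/- and 11.26 in p110α hep+/+ livers, a difference of -0.30.

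**Figure D4:**
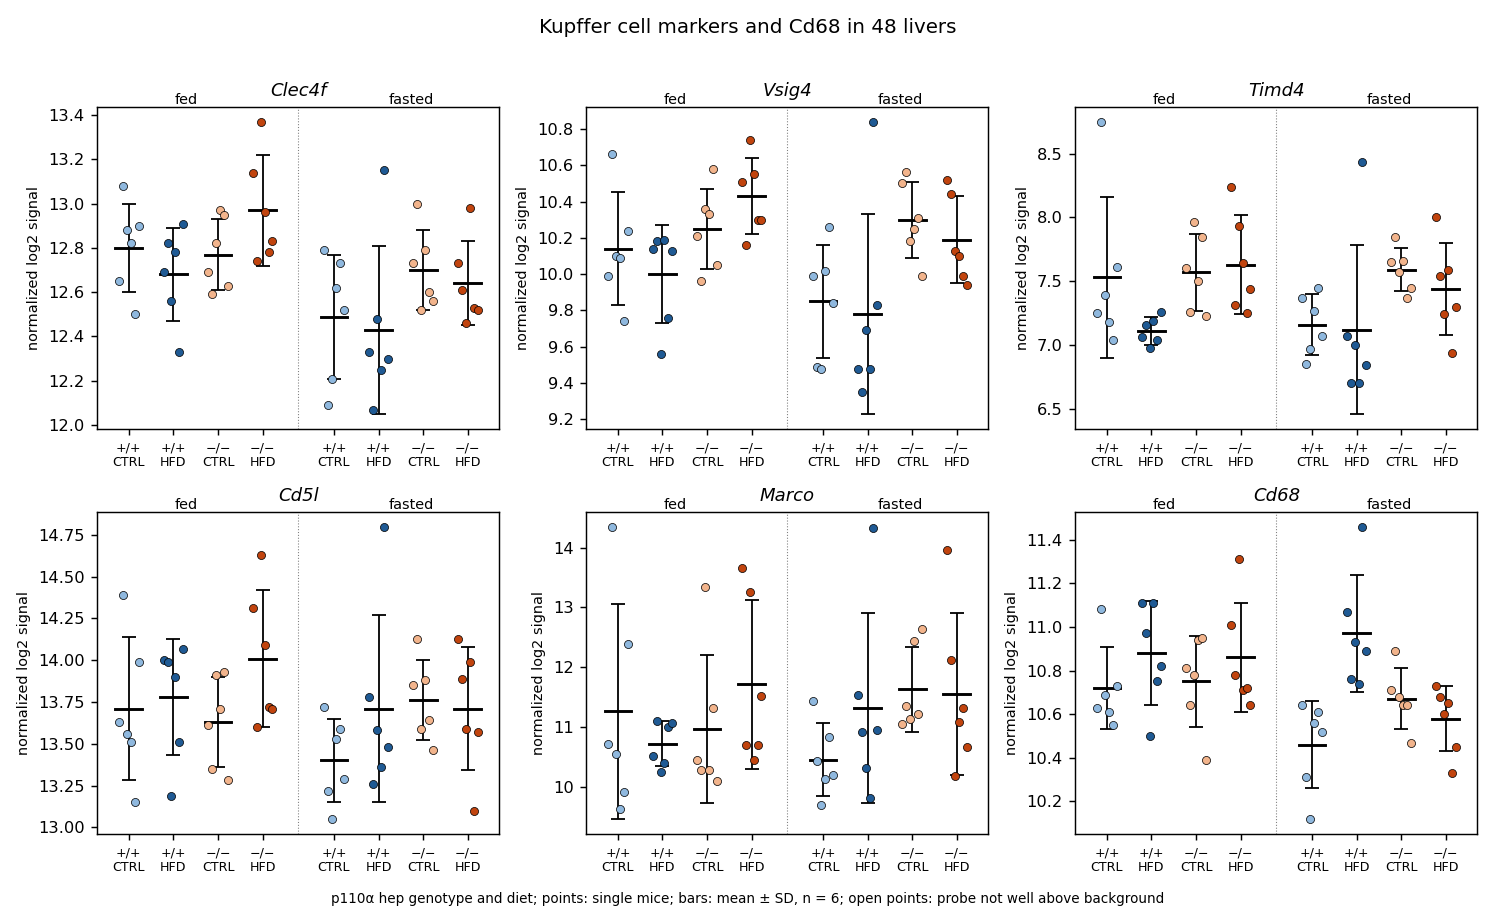
Normalized log2 signal (vertical axis) of Clec4f, Vsig4, Timd4, Cd5l, Marco and Cd68 on each of the 48 arrays (points) by genotype, diet and state, with mean ± SD of 6 arrays per group. The Kupffer cell markers overlap between all groups that were compared on the same diet and state, and Marco reaches 14.35 in 1 fed p110α hep+/+ CTRL liver and 14.33 in 1 fasted p110α hep+/+ HFD liver, against group medians of 10.63 and 10.93.

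Fasting for 24 h moved few of the markers. In p110α hep+/+ mice on HFD, 1 of 10 was called, Clec4f at -0.33, where 28.4% of all genes were called. Clec4f ran from 12.33 to 12.91 (median 12.74) fed and from 12.07 to 13.15 (median 12.32) fasted, and the groups overlapped. Its adjusted p was 0.0373, the difference was -0.53 in the first washing batch and 0.03 in the second, and the call was lost under 7 settings of the processing. It was also lost when any 1 of 7 arrays was left out, fasted replicates 1, 2, 4 and 6 and fed replicates 2, 4 and 6, at adjusted p up to 0.162. Without the fasted replicate 5, Vsig4 was called here as well, at -0.50 (adjusted p = 0.00355).

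By their brightest probes, the other fasting comparisons called 0 of 10 markers with limma: p110α hep+/+ on CTRL (32.5% of all genes called, 3 markers at an unadjusted p under 0.05), p110α hep-/- on CTRL (35.4%, 0 markers) and p110α hep-/- on HFD (28.5%, 0 markers). The dimmer Cd68 probes differed from the brightest here: both were called lower after fasting in p110α hep-/- mice on HFD, at -0.34 (adjusted p = 0.0416) and -0.32 (adjusted p = 0.0239), where the brightest gave -0.22 (0.183). In p110α hep+/+ mice on CTRL 1 of them was called, at -0.38 (adjusted p = 0.00891), where the brightest gave -0.24 (0.0791). In p110α hep+/+ mice on CTRL, Ccr2 (-0.24) and Clec4f (-0.30) were called when 1 of several arrays was left out, at adjusted p of 0.0355 to 0.0427 for Ccr2 and 0.032 to 0.0381 for Clec4f. The arrays were fasted replicate 2 and fed replicates 3 and 6 for Ccr2, and fasted replicates 1 and 5, fed replicate 5 and the fasted HFD replicate 5 for Clec4f. Interactions of fasting with genotype (3.92% of genes called on CTRL and 3.37% on HFD) and with diet (2.36% of genes in control and 7.90% in p110α hep-/- mice) also gave 0 of 10.

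Related genes were counted from lists written from general knowledge, but with earlier results of these data known. Of all genes, 12.4% (fed) and 8.96% (fasted) were higher on HFD in the p110α hep+/+ mice. On HFD, 16.3% (fed) and 17.7% (fasted) of all genes were lower in p110α hep-/- livers, and 2.83% and 4.96% were called in the genotype by diet interactions. Of 12 monocyte and recruited macrophage genes, HFD called 7 higher and 0 lower in fed p110α hep+/+ mice (median 0.40) and 10 higher and 1 lower in fasted ones (median 0.75). In p110α hep-/- mice the counts were 0 higher and 2 lower fed, and 0 and 0 fasted, beside 12.2% and 10.8% of all genes called. In fasted p110α hep+/+ mice S100a4 rose by 1.25 and Ly6c2 by 1.23 (its near-identical paralog Ly6c1, whose probe may share signal, by 1.17), followed by Chil3 at 1.22, the fractalkine receptor Cx3cr1 at 1.04 and Ms4a7 at 0.91. Between genotypes on HFD, 8 of 12 were lower and 0 higher in p110α hep-/- livers in either state, with medians of -0.65 fed and -0.92 fasted, and with Ly6c2 at -1.85, Cx3cr1 at -1.50 and Chil3 at -1.42 in fasted mice. The difference between genotypes in the diet effect was called for 3 of 12 in fed and 5 of 12 in fasted mice, all lower.

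Among 12 other genes of lipid-associated macrophages, HFD called 7 higher and 1 lower in fed p110α hep+/+ mice (median 0.56) and 5 higher and 0 lower in fasted ones (median 0.35). In p110α hep-/- mice it called 2 higher and 1 lower fed, and 2 and 2 fasted. In fasted p110α hep+/+ mice the called genes were Mmp12, the macrophage elastase, at 1.02, Spp1 (osteopontin) at 0.99, the lysosomal tetraspanin Cd63 at 0.93, Lgals3 (galectin-3) at 0.88 and the protease Ctsk at 0.41. On CTRL 5 were lower and 2 higher in fed p110α hep-/- livers, where 21.5% of all genes were called. In fasted ones on CTRL 2 were lower and 3 higher (median 0.17), where 24.8% of all genes were called. On HFD 9 were lower and 2 higher in fed and 7 lower and 2 higher in fasted p110α hep-/- livers (medians -0.57 and -0.49). Spp1 differed by -2.63, Mmp12 by -1.18, Cd63 and the lipid droplet coat protein Plin2 both by -0.78, whereas Lpl, lipoprotein lipase, was higher by 1.84 and the fatty acid binding protein Fabp5 by 0.81, all in fasted mice. Several of these genes are also expressed by hepatocytes, and Spp1 by cholangiocytes, so this list is less specific to macrophages than Trem2 and Gpnmb.

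Of 11 measured ligands, chemokines and adaptors, 3 were called higher on HFD in p110α hep+/+ mice in each state, Ccl2, Ccl7 and Cx3cl1, and in fed mice Tnf was lower. The other 7 in fed and 8 in fasted mice did not pass the test, and of all genes 24.1% and 15.9% were called. Ccl2 and Ccl7, both ligands of Ccr2, were higher by 1.58 and 0.78 in fed and by 1.61 and 0.80 in fasted mice. In p110α hep-/- livers on HFD, Ccl2 was lower by -1.51 fed and -2.31 fasted, and Ccl7 by -0.96 and -0.98, among 5 lower and 1 higher of 11 fed and 3 lower and 0 higher fasted. Cx3cl1, the ligand of Cx3cr1, differed by -0.54 and -0.61. In these genotype comparisons on HFD, 16.3% (fed) and 17.7% (fasted) of all genes were called lower, and 32.9% and 36.8% in either direction.

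Genes shared by all macrophages and further Kupffer cell genes were counted in the same way. Of 14 pan-macrophage genes, HFD called 1 higher and 1 lower in fed and 5 higher and 1 lower in fasted p110α hep+/+ mice, among them the Trem2 adaptor Tyrobp at 0.46 in fasted mice, beside 24.1% and 15.9% of all genes called. Between genotypes on HFD, 1 was higher and 0 lower fed, and 1 higher and 3 lower fasted, beside 32.9% and 36.8% of all genes. Of 16 other Kupffer cell genes, HFD called 1 higher and 2 lower fed and 1 and 1 fasted in p110α hep+/+ mice. In p110α hep-/- livers 3 of 16 were higher and 1 lower on fasted HFD, a share no greater than the 19.1% and 17.7% of all genes, with the ficolin Fcna at 1.25, the haemoglobin scavenger receptor Cd163 at 0.75, the efferocytosis receptor Mertk at 0.29 and the Fc receptor Fcgr1 at -0.41.

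Markers of other cells moved in the same comparisons. Itgax is found on dendritic cells too, but was not in the list of dendritic cell markers. Of the 9 measured genes of that list, 1 was called higher on HFD in fed and 3 in fasted p110α hep+/+ mice, beside 12.4% and 8.96% of all genes. In p110α hep-/- mice HFD called 1 lower fed and 0 fasted, beside 12.2% and 10.8% of all genes called. Between genotypes on HFD, 4 were lower in fed and 4 lower and 1 higher in fasted p110α hep-/- livers, with H2-Ab1 at -1.21 and -1.01. Of all genes, 16.3% were lower there in fed mice, and 17.7% lower and 19.1% higher in fasted mice. The mean dendritic marker signal of the fasted HFD arrays ran from 8.75 to 9.14 in p110α hep+/+ and from 8.28 to 9.0 in p110α hep-/- livers. Of 6 neutrophil markers, 2 were higher on HFD in fed and 3 in fasted p110α hep+/+ mice, beside 12.4% and 8.96% of all genes. In p110α hep-/- mice HFD called 0 fed and 1 higher fasted, beside 12.2% and 10.8% of all genes called. Between genotypes on HFD, 3 were lower in fasted p110α hep-/- livers, beside 17.7% of all genes, and 0 in fed ones, in either direction. Neutrophil means on fasted HFD were 8.76 to 9.43 in p110α hep+/+ and 8.27 to 8.59 in p110α hep-/- livers. The part of dendritic cells and neutrophils in the lower Itgax, Ccr2 and S100a4 was not tested.

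Of 6 cholangiocyte markers, which include Spp1, 4 were lower in p110α hep-/- livers on fed CTRL and 5 in each of the other 3 genotype comparisons. Of all genes, 10.6% were lower on fed CTRL, 16.3% on fed HFD and 17.7% on fasted HFD. On fasted CTRL 24.8% of all genes were called in either direction. On fasted HFD the cholangiocyte means were 7.11 to 7.51 in p110α hep+/+ and 6.44 to 6.71 in p110α hep-/- livers. Of 10 sinusoidal endothelial markers, cells that border on Kupffer cells, 8 were higher and 0 lower in p110α hep-/- livers on fasted HFD (median 0.37), beside 19.1% of all genes higher, and 5 higher and 0 lower on fasted CTRL (median 0.20), beside 12.5%. In fed p110α hep-/- livers on HFD 1 of the 10 was higher and 3 lower (median 0.09), beside 32.9% of all genes called. On fed CTRL 2 were higher and 1 lower (median 0.14), beside 21.5%. The 2 fasted comparisons are those in which Vsig4 was called. Endothelial means in them were 9.98 to 10.38 against 10.44 to 10.60 on HFD and 10.13 to 10.47 against 10.43 to 10.57 on CTRL. The part of these cells in the Vsig4 difference was not tested.

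From mouse to mouse within groups, the markers fell into 2 sets. Over the 48 deviations from the group means, which share arrays and normalization and are described without a test, Clec4f, Marco, Cd5l, Vsig4, Timd4 and Cd68 correlated with each other at Pearson r between 0.56 and 0.89. Trem2, Gpnmb, Ccr2 and Itgax correlated with each other at 0.56 to 0.77. Trem2 ran opposite to Marco and Timd4, at -0.60 with each. These 2 values lean on a few livers: over the 42 arrays without the 6 of very high Marco, r was -0.30 with Marco and -0.16 with Timd4, while Marco and Timd4 were still at 0.57 with each other (0.84 over all 48). In 5 of the 8 groups the liver with the highest Marco also had the highest Timd4, and in 6 of 8 it had the lowest Trem2. In fed p110α hep+/+ mice on CTRL, for instance, replicate 2 had Marco at 14.35, Timd4 at 8.75 and Trem2 at 6.72.

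**Figure D5:**
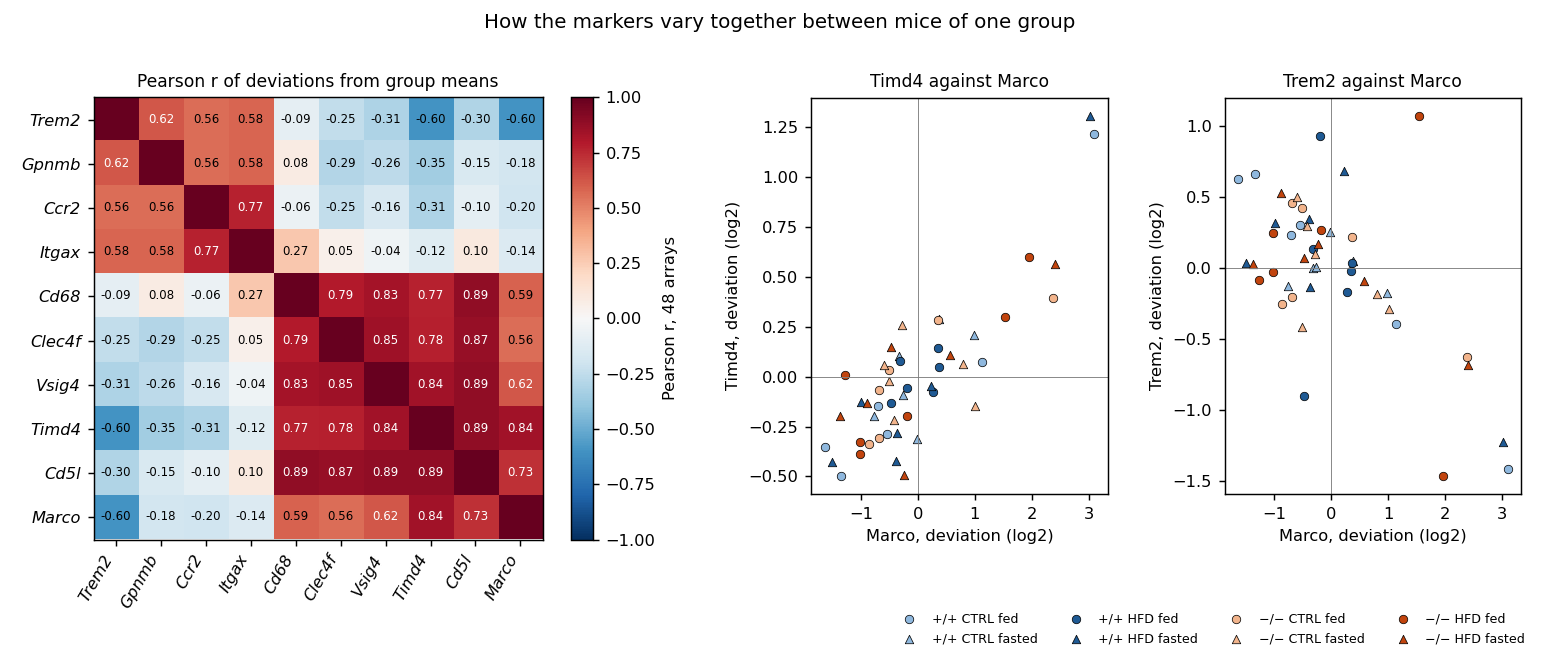
Pearson correlation, over 48 deviations from the group means, between each pair of the 10 markers (left), and the deviations of Timd4 and Trem2 (log2, vertical axes) against those of Marco (log2, horizontal axes) for each mouse. The Kupffer cell markers and Cd68 form one block (0.56 to 0.89), Trem2, Gpnmb, Ccr2 and Itgax another (0.56 to 0.77), and Trem2 is at -0.60 with Marco and Timd4. Gpnmb was well above background on 18 of 48 arrays.

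The genes outside the list that followed each marker most closely were found by the same correlation over 48 deviations. Cd68 was closest to Fcer1g (0.93), Tyrobp (0.91) and C1qa (0.90), Clec4f to C1qa (0.88), C1qc (0.84) and Csf1r (0.84), Cd5l to Igsf6 (0.93), C1qa (0.92) and Csf1r (0.92), and Vsig4 to C1qa (0.89), Csf1r (0.88) and Ifi30 (0.88). Marco was closest to Aoah (0.88), Prex1 (0.83) and Cfp (0.82), and Timd4 to Cfp (0.94), Prex1 (0.92) and Fpr1 (0.92). Trem2 was closest to Cx3cr1 (0.79), Gpx8 (0.74) and Mmp12 (0.73), and Gpnmb to Cd63 (0.76), Emp1 (0.73) and Sgce (0.73). The Gpnmb values rest partly on signals near background. Over the levels themselves they were 0.87 for Cd63, 0.83 for Emp1 and 0.18 for Sgce. Ccr2 was closest to Arhgap22 (0.79), Mbnl3 (0.73) and Frzb (0.70), and Itgax to Tmsb10, H2-Ab1 and H2-Eb1 (0.85 each), the last 2 encoding class II antigen presentation chains.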

How the data were processed

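Signals were measured in liver RNA of 48 mice (200 ng labelled with Cy3) on one-colour Agilent arrays of 60-base probes. The scanner files hold spot intensity that the authors extracted with Agilent Feature Extraction 10.10.1.1 (submitters' processing notes); a second deposited table holds the authors' log2 values after filtering, washing-batch correction and quantile normalization, and gave the same marker counts. Here log2 median intensity was used with outlier spots missing and spots averaged per probe. Probes were kept if well above background on at least 5 of 6 arrays of any group, the 2 washing batches were removed with group means protected, and arrays were quantile normalized. One limma fit (limma 3.58.1, R 4.3.3, array weights, 8 group means) gave 18 contrasts. A gene was called at a Benjamini-Hochberg adjusted p of at most 0.05 over all kept probes, and its brightest probe stands for it. The script was tested on simulated data. Precision is limited by 6 arrays per group.

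The markers and lists were chosen with earlier results of these data known. Named were all 10 markers and, for each, the 3 other genes of highest correlation over the 48 deviations. The lists held other Kupffer cell, pan-macrophage, other lipid-associated macrophage, monocyte, ligand, endothelial, stellate, cholangiocyte, T and NK, B, neutrophil, dendritic and hepatocyte genes. From some lists called genes were named, at most 6 per comparison, and other called genes were only counted. Alternatives changed the background correction, scaling, filter, washing correction, slide or replicate block, array weights, the probe rule and the arrays included. Gene names are those of the array design. The values of 1 gene of the monocyte list are not reported here.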

Additional observations from a re-analysis of the deposited data

Results flagged for a closer look

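In 7 of 80 sets of 6 arrays (10 markers in 8 groups) 1 array lay apart from the others by Dixon's criterion, which chance does in about 1 of 20 sets. In fed p110α hep+/+ mice on CTRL the highest Cd68 was 11.08 (next 10.73) and the highest Timd4 8.75 (next 7.61), both in replicate 2. Fasted p110α hep+/+ mice on HFD had 3 such values, all in replicate 5: Cd5l at 14.80 (next 13.78), Vsig4 at 10.84 (next 9.83) and Timd4 at 8.43 (next 7.07). Fed p110α hep-/- mice on HFD had the highest Gpnmb at 6.04 (next 5.10), in replicate 3, whose array had the lowest weight of all, and the lowest Ccr2 at 5.64 (next 5.96), in replicate 1.

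In fasted mice the effect of HFD differed between genotypes by the limma interaction test for Cd68 (-0.59), Trem2 (-1.35), Gpnmb (-1.30), Ccr2 (-0.79) and Itgax (-1.27), each lower in p110α hep-/- livers. The Gpnmb value has no measured size, since neither fasted p110α hep-/- group was well above background on any array.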

How the results depend on the processing

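The 28 called marker differences were recomputed under 59 settings each (48 of them leave out 1 array), 1640 values in all where a value could be had. None changed sign, 1577 kept their call, 63 lost it, and 18 differences never lost it. When probes had to be well above background on all arrays, Gpnmb and Ccr2 were no longer tested, and the calls among the 8 markers left were 2 and 3 for HFD in fed and fasted p110α hep+/+ mice, 0 and 2 for genotype in fed CTRL and fed HFD mice, and 3 for the fasted genotype by diet interaction. Without the filter on dim probes, without array weights, and with a fold over 1.5 required, the counts were 1 for genotype in fed CTRL mice, 0 for genotype in fasted CTRL mice and 0 for fasting in p110α hep+/+ mice on HFD. The fold over 1.5 also ended the calls of Ccr2 for HFD in fed p110α hep+/+ mice and of Cd68 for HFD in fasted p110α hep+/+ mice and between genotypes in fasted HFD mice. The count for fasting in p110α hep+/+ mice on HFD was also 0 with processed signals scaled to the 75th percentile, without the washing correction and with slide as a block. The median over probes gave 1 (Cd68) for fasting in p110α hep+/+ mice on CTRL and 1 (Cd68) in p110α hep-/- mice on HFD. The cause was not tested.

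Replicate numbers did not consistently pair the samples (same-number correlations between -0.34 and 0.31). For HFD in fasted p110α hep+/+ mice these correlations were 0.01 to 0.31, with 4 of 6 over 0.1. Their mean was 0.16 there, against -0.03 between different numbers. With the replicate number as a block, fasting called 1 marker in p110α hep+/+ mice on CTRL (Ccr2, -0.27, adjusted p = 0.0498) and 0 on HFD, and all other counts were as reported.

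Leaving out 1 array at a time gave 3 to 4 and 5 to 5 called markers for HFD in fed and fasted p110α hep+/+ mice, 1 to 3 and 0 to 2 for genotype in fed and fasted CTRL mice, 3 to 5 and 5 to 8 in fed and fasted HFD mice, 0 to 1 and 0 to 2 for fasting in p110α hep+/+ mice on CTRL and HFD, and 0 to 1 and 3 to 5 for the fed and fasted genotype by diet interaction. Of the 28 called differences, 26 had the same sign in both washing batches, the exceptions being Trem2 between genotypes in fed HFD mice and Clec4f with fasting. Trem2 in the fasted interaction lost its call under 4 settings besides those that leave out an array, at adjusted p up to 0.106. Background-subtracted signals also took the fasted interaction to -2.54 for Gpnmb (p110α hep-/- arrays not well above background) and -1.27 for Ccr2, both still called. At the other end of the processing settings these were -0.91 for Gpnmb and -0.58 for Ccr2. Scalings moved the median of all genes by at most 0.04. The dim Gpnmb probe limits what can be said of p110α hep-/- livers.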

Other observations

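Cell types other than macrophages were counted with the same rule, beside 24.1% (fed) and 15.9% (fasted) of all genes called between diets in the p110α hep+/+ mice and 32.9% and 36.8% between genotypes on HFD. Of 10 hepatic stellate cell markers, HFD called 3 higher in fed and 2 in fasted p110α hep+/+ mice, with Pdgfrb, a growth factor receptor of stellate cells and pericytes, at 0.46 and 0.61. In p110α hep-/- mice HFD called 1 higher fed and 2 fasted, with medians of 0.14 and 0.21 over the list against 0.21 and 0.18 in p110α hep+/+ mice. On HFD, Pdgfrb was at -0.32 fed and -0.68 fasted in p110α hep-/- livers, whereas Rgs5, a pericyte gene, was at 0.61 and 1.1, among 3 higher and 1 lower fed and 3 higher and 2 lower fasted. Of 5 measured B cell markers limma called 0 in all of the diet and genotype comparisons, with at most 1 at an unadjusted p under 0.05. Of 7 T and NK cell markers 2 were higher and 1 lower in fed and 1 higher in fasted p110α hep-/- livers on HFD, with Cd4 at 0.56 and 0.66. Most of the list lay on the other side of 0, with 3 of 7 above 0 fed (median -0.40) and 2 of 7 fasted (median -0.03). Of 10 hepatocyte markers 3 were higher and 1 lower in fed and 1 and 1 in fasted p110α hep-/- livers on HFD. On CTRL 4 were higher and 1 lower in each state, beside 21.5% (fed) and 24.8% (fasted) of all genes called.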
